A study of Mus musculus with 9 samples.

Results

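The genes described here are the collagen and laminin chains in meningeal lymphatic endothelial cells (MLECs), the cells that line the lymphatic vessels of the membranes around the brain. Members were taken by symbol: Col, a number, a and a number for collagens, and Lam, a letter from a to c and a digit for laminins. The rule found 55 of the 24321 genes listed, 44 collagen chains and 11 laminin chains. RNA-seq values were compared between 3 groups of male mice labelled 10 weeks old, with 3 libraries per group. Control mice had received PBS, GL261 mice had received GL261 glioma cells about 3 weeks before collection, and B16 mice had received B16 melanoma cells about 2 weeks before collection. The labels give no genotype or transgene, and the paper's methods name C57BL/6 as the strain. Each library came from the meninges of 6 pooled mice and held 10 cells stained and sorted for CD31+ CD45- LYVE-1+ with a viability dye (the study's results name PDPN in place of LYVE-1), so that a library is a small sample of its pool. GL261 and B16 libraries are together called tumor-associated. The values are FPKM, fragment counts scaled by transcript length and library size, so that levels of different genes can be set beside each other.

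Collagens are trimers of alpha chains. Type IV collagen, built mostly from the products of Col4a1 and Col4a2, forms the sheet-like network of basement membranes, whereas fibrillar collagens such as types I, III and V form the fibres of the stroma. Laminins are heterotrimers of an alpha, a beta and a gamma chain and form the other network of basement membranes, which binds to integrins on the cell. Blood vessels rest on a continuous basement membrane, whereas that of initial lymphatic vessels is sparse and discontinuous.

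The type IV pair carried the finding below, and its gene starts are shown because both genes lie head to head. In mm9, Col4a1 (chr8:11198423-11312826, minus strand) and Col4a2 (chr8:11312805-11449287, plus strand) overlap by 22 bases at their first exons, and their annotated starts are 21 bases apart. The windows of 250 bases before and 50 bases after each start, from RefSeq (GRCm38.p6), were found unchanged in mm9 at chr8:11312777-11313076 for Col4a1 and chr8:11312555-11312854 for Col4a2. They share 78 bases, which are in capitals and are the reverse complement of each other.
Col4a1: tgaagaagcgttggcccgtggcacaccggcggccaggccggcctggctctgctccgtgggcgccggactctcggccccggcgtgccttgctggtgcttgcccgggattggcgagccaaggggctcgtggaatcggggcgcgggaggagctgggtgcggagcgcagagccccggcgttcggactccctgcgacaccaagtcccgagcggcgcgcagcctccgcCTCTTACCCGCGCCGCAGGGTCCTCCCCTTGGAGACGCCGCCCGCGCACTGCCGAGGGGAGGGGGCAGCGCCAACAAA
Col4a2: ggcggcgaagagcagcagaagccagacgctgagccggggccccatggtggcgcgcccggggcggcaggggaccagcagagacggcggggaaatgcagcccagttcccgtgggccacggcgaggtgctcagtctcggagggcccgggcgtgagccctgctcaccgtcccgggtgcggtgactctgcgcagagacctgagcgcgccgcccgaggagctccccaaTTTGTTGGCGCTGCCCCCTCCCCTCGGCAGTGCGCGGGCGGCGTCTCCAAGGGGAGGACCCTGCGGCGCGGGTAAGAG
The windows were rich in G and C (74.0% for Col4a1 and 73.7% for Col4a2, against a median of 52.7% over 32851 such windows). The GC box letters GGGCGG, searched on both strands, occurred 1 time in the Col4a1 window and 3 times in the Col4a2 window, and 35.7% of all windows hold them. CCAAT occurred 1 time in each window and is held by 37.4% of all windows, and the TATA box letters TATAAA occurred in neither and are held by 13.6%. These matches are letters and not tested sites. Of the 55 genes, 54 had a position in the mm9 annotation, and 9 neighbouring pairs lay within 100000 bases of each other. The pairs placed head to head numbered 3, and all were type IV pairs (Col4a1 with Col4a2, Col4a3 with Col4a4, and Col4a5 with Col4a6).

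Between 652636 and 888312 FPKM were listed per library, and since only FPKM were used here, the counting error of each value is unknown. From the steps between low values, control libraries were estimated at 14.9% to 23.7% of the depth of the deepest library (GL261 2), GL261 libraries at 55.1% to 100% and B16 libraries at 25.3% to 56.6%. Each control library was estimated to be shallower than each tumor-associated one, so that depth and tumor status cannot be told apart. The estimates of Control 2 (23.7%) and B16 1 (25.3%) were close. Tests used limma on log2(FPKM + 1), a scale that understates changes of low genes, for the 9955 genes that reached 1 FPKM in 3 or more of the 9 libraries, and p was adjusted by Benjamini-Hochberg. The median difference of these genes between tumor-associated and control libraries was 0.20 on this scale, and 0.05 after values were rescaled to an equal sum. Of 391 genes called, 73.9% were higher in tumor-associated libraries, 64.4% after that rescaling and 62.1% after quantile normalization.

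The 19 basement membrane chains (8 collagens and 11 laminins) held most of the collagen and laminin signal in every library. They made up between 84.4% and 92.1% of the summed FPKM of all 55 members in controls, and between 90.1% and 99.3% in tumor-associated libraries. The 11 fibrillar chains held between 2.41% and 3.66% in controls and between 0.714% and 2.37% in tumor-associated libraries. Few chains were detected. Of the 55 members, 25 were listed at 0 in all 9 libraries, 8 were above 0 in all 9, and 14 passed the filter on low values. Described below are 13 of these: Col4a1, Col4a2, Col15a1 and Col18a1 among the basement membrane collagens, Lama3, Lama4, Lama5, Lamb1, Lamb2 and Lamc1 among the laminins, Col5a2 among the fibrillar collagens, and the transmembrane collagens Col13a1 and Col23a1. Col13a1 and Lama3 passed through tumor-associated libraries alone. The 14 tested genes are long, with a median longest transcript of 6192 bases against 2950 bases over the tested genes with a known length.

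**Figure D1:**
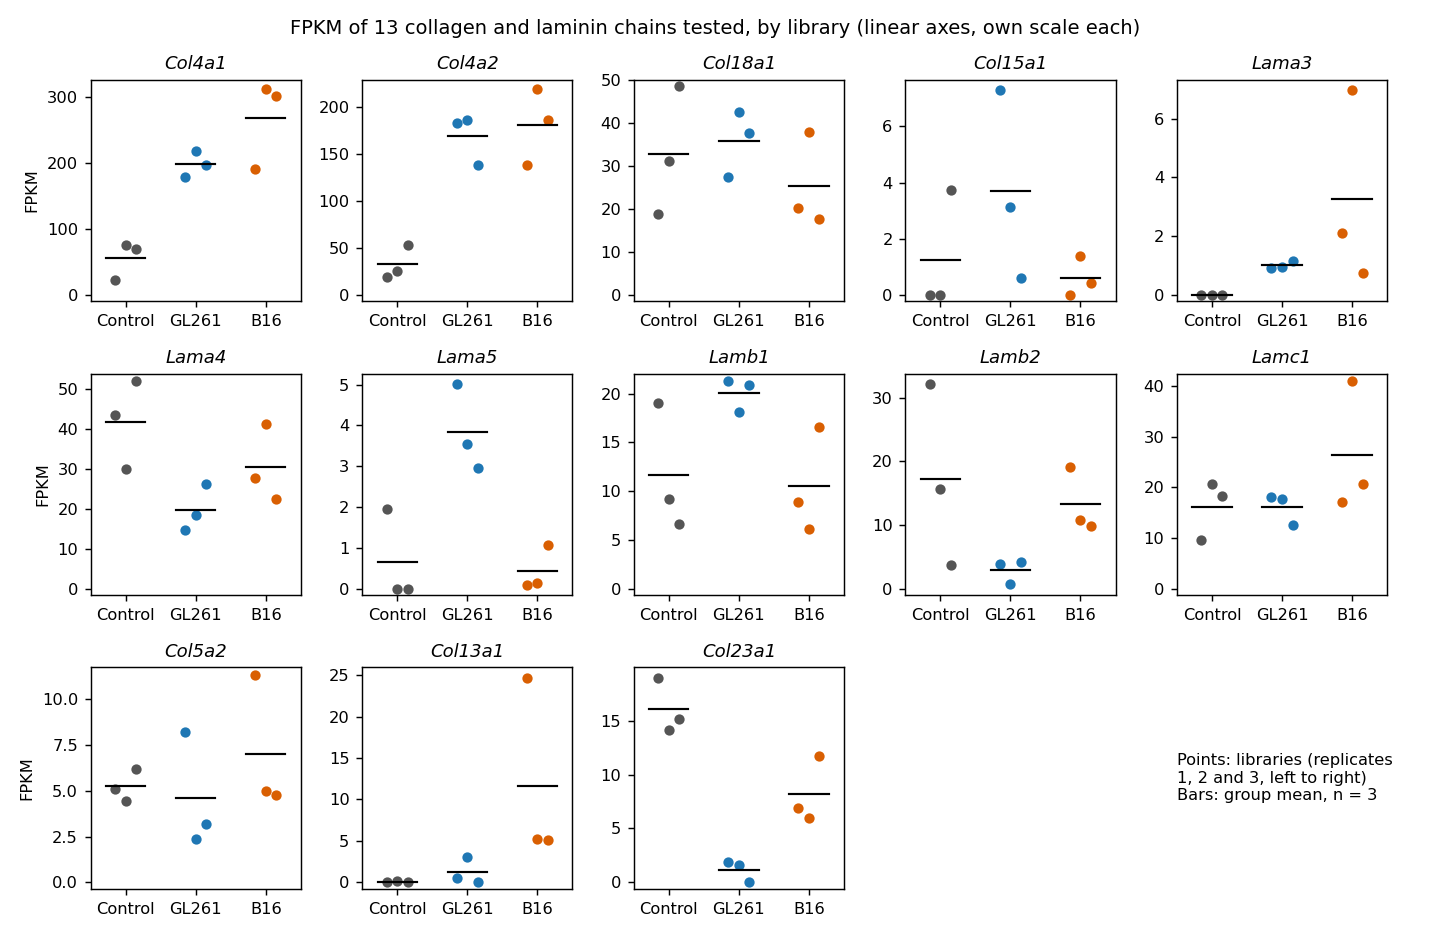
FPKM (linear y axes, one scale per gene) of 13 chains that passed the filter, in control, GL261 and B16 libraries. Points are libraries and bars are group means (n = 3). Col4a1 and Col4a2 were higher in each tumor-associated library than in each control library, and Col23a1 was lower.

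Col4a1 and Col4a2, which encode the main chains of type IV collagen, were the only members called, and both rose. Col4a1 was at 22.8, 75.8 and 69.0 FPKM in Control 1, 2 and 3, at 178, 218 and 197 in the GL261 libraries and at 191, 311 and 301 in the B16 libraries. Col4a2 was at 19.2, 25.6 and 52.7 in the control libraries, at 183, 186 and 137 in GL261 and at 138, 219 and 186 in B16. For both genes, the lowest tumor-associated library lay above the highest control library. Mean FPKM of Col4a1 went from 55.9 ± 28.8 (SD, n = 3) to 233 ± 58.4 (n = 6), a 4.17-fold difference. On the log2 scale its difference was 2.18 (SE 0.40, limma adjusted p = 0.00837). Col4a2 went from 32.5 ± 17.8 to 175 ± 31.7, which is 5.38-fold, with a log2 difference of 2.50 (SE 0.37, limma adjusted p = 0.00198). Of all genes tested, 3.93% were called, and 2 of the 14 members tested were. The median difference of these 14, some of them admitted by their tumor-associated values alone, was 0.44, beside 0.20 over all genes. In a bulk library, more cells with type IV transcripts and more transcripts per cell cannot be told apart.

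Both genes were also called in each tumor against control, although these comparisons share the control libraries. Col4a2 rose by 2.46 (SE 0.44, limma adjusted p = 0.0117) in GL261 and by 2.54 (SE 0.44, adjusted p = 0.0121) in B16. Col4a1 rose by 1.97 (SE 0.46, adjusted p = 0.0389) in GL261 and by 2.38 (SE 0.46, adjusted p = 0.0227) in B16. The call shares over all genes were 3.49% for GL261 and 2.11% for B16. Col4a1 did not differ detectably between the tumors (-0.41, 95% interval -1.41 to 0.60). The calls over all 6 tumor-associated libraries held in each of the 9 fits that left out 1 library, with adjusted p of at most 0.0242 for Col4a1 and 0.00836 for Col4a2. They were lost when the number of detected genes was a covariate (adjusted p = 0.324 and 0.185) or when the estimated depth was (adjusted p = 0.251 and 0.188), with differences of 1.79 and 2.15, and of 2.29 and 2.48. The calls for single tumors were less stable. Col4a1 in GL261 was lost in 12 of 17 alternatives, among them rescaling, quantile normalization, no filter, no trend and both covariates, with a log2 difference of 0.70 at the lowest, and Col4a1 in B16 was lost in 6 of 17, among them no filter and no trend. Col4a2 was lost in 4 of 17 in either tumor. In B16, both genes missed the threshold without B16 2 or B16 3 (adjusted p between 0.0638 and 0.106), and in GL261 both missed it without GL261 1 or GL261 2 (0.0629 to 0.147). Col4a1 in GL261 was also lost without GL261 3, Control 1, B16 2 or B16 3 (0.0585 to 0.111). A ROC power above 0.4, the kind of cut-off used in the paper's methods, was reached by 10 of the 30 members with a value above 0, 6 higher and 4 lower, and by 42.1% of all genes. Here the power was computed for every gene with any value above 0. The paper applied its cut-off in Seurat and lists far fewer genes, so these shares are not those of the paper.

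Type IV transcripts held a larger share of the collagen signal in tumor-associated libraries. Col4a1 and Col4a2 together made up 57.3% ± 10.0 (SD, n = 3) of the FPKM of all collagen chains in control libraries, 88.2% ± 0.872 in GL261 and 88.5% ± 4.82 in B16. Their sum stood at 0.395, 1.34 and 1.51 times the sum of the 11 laminin chains in the control libraries, and at 4.13 to 6.82 times in the tumor-associated ones, without overlap. The ratio of Col4a1 to Col4a2 was 1.19, 2.95 and 1.31 in control, 0.975, 1.17 and 1.43 in GL261 and 1.39, 1.42 and 1.62 in B16. The ratio overlapped between groups, and the spread of the control value (1.82 ± 0.986) came from the library Control 2. The other type IV genes were near 0. Col4a5 was at 1.27 in Control 2, at 0.24 in B16 1 and at 0 elsewhere, and Col4a3, Col4a4 and Col4a6 were listed at 0 in all 9 libraries.

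**Figure D2:**
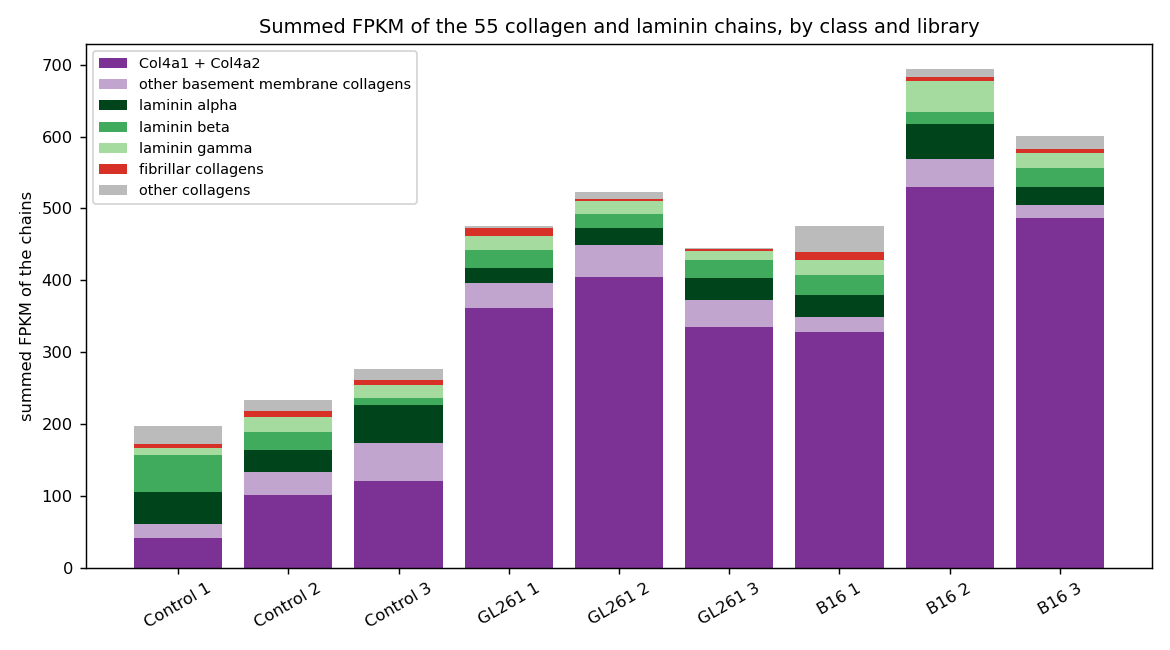
Stacked bars of the summed FPKM of the 55 chains in each library (y axis from 0), by class. The sum of Col4a1 and Col4a2 lay between 42.0 and 122 in control libraries and between 328 and 530.0 in tumor-associated libraries, and the remaining basement membrane chains lay between 89.5 and 147 in all 9.

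Apart from this pair, none of the 9 other basement membrane chains tested was called. The other 17 chains summed to 122 ± 12.8 FPKM in controls. In GL261 they summed to 104 ± 3.06, and each GL261 library lay below each control library. In B16 they summed to 112 ± 30.6, with a range that overlapped controls. Col18a1, whose product can be cleaved to endostatin, was at 18.8, 31.2 and 48.6 in control, 27.4, 42.7 and 37.7 in GL261 and 20.4, 38.0 and 17.7 in B16. The groups overlapped throughout, and the log2 difference was -0.07 (95% interval -1.13 to 0.98, adjusted p = 0.956). Its paralog Col15a1 was low, at 0, 0 and 3.72 in control, 7.29, 3.14 and 0.61 in GL261 and 0, 1.40 and 0.43 in B16. The difference of 0.51 (95% interval -1.21 to 2.24) did not pass the test.

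Laminin chains summed to 87.5 ± 16.5 FPKM in controls, to 86.2 ± 19.0 in B16 and to 64.8 ± 4.36 in GL261, where each library lay below each control library. None of the 7 laminin chains tested was called in any comparison. Lama4, the laminin alpha chain typical of endothelium, was the main alpha chain, with 69.8% to 100% of the alpha FPKM in each library. Lama4 was at 43.6, 30.0 and 52.1 in control, 14.6, 18.4 and 26.3 in GL261 and 27.8, 41.3 and 22.4 in B16. All GL261 libraries lay below all control libraries, as for 22.5% of all genes in either direction, but the difference of -1.05 (SE 0.53, adjusted p = 0.347) did not pass. For tumor-associated libraries together it was -0.75 (95% interval -1.76 to 0.26).

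Lama5, the other endothelial alpha chain, was at 1.94, 0 and 0 in control, at 5.02, 3.53 and 2.95 in GL261 and at 0.087, 0.14 and 1.06 in B16. GL261 libraries lay above all 6 others. The difference to control was 1.73 (SE 0.70, limma adjusted p = 0.227) in GL261, and that of all tumor-associated libraries was 0.83 (SE 0.73, adjusted p = 0.574). Lama3, a chain of epithelial laminin-332, was listed at 0 in the 3 control libraries, at 0.92, 0.95 and 1.15 in GL261 and at 2.12, 6.98 and 0.75 in B16. Its log2 difference of 1.41 (SE 0.61, adjusted p = 0.235) rests on low values. Lama1 reached 0.42 at most, and Lama2, the alpha chain of muscle, was listed at 0 in all libraries.

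Of the beta chains, Lamb1 was at 19.0, 9.24 and 6.68 in control, 21.3, 18.1 and 20.9 in GL261 and 8.87, 6.13 and 16.6 in B16. Lamb2 was at 32.2, 15.7 and 3.66 in control, 3.94, 0.75 and 4.26 in GL261 and 19.1, 10.8 and 9.84 in B16. The ratio of Lamb2 to Lamb1 was therefore between 0.0413 and 0.203 in GL261 libraries, and between 0.549 and 2.15 in the 6 others. Neither chain passed the test in tumor-associated libraries (Lamb1 0.37, SE 0.61, adjusted p = 0.797; Lamb2 -0.97, SE 0.88, adjusted p = 0.586). Lamb2 over all tumor-associated libraries ranged from -1.75 without Control 3 to -0.33 without Control 1, and turned to 1.10 and 0.78 with detected genes and estimated depth as covariates. Lamb2 was -1.94 (SE 0.90, adjusted p = 0.302) in GL261 against control. Control 1, with the highest Lamb2 and the highest control Lamb1, was also the only library with smooth muscle genes at high levels (Acta2 505 FPKM, Tagln 641 and Myh11 57.2, against at most 6.34 elsewhere), and their part in these values was not tested. Lamb3 was listed at 0 throughout.

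Lamc1, the gamma chain of most laminins, was at 9.61, 20.6 and 18.3 in control, 18.0, 17.7 and 12.6 in GL261 and 17.2, 40.9 and 20.7 in B16. The groups overlapped, and the difference was 0.34 (95% interval -0.81 to 1.49). Lamc3 was at 0 in all libraries. Summed by kind, the ratio of alpha to gamma chains spread from 1.46 to 4.73 over controls and from 1.05 to 2.41 over tumor-associated libraries. The ratio of beta to gamma chains spread from 0.566 to 5.33 over controls and was at most 1.99 in tumor-associated libraries, so that the groups overlapped in both ratios.

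**Figure D3:**
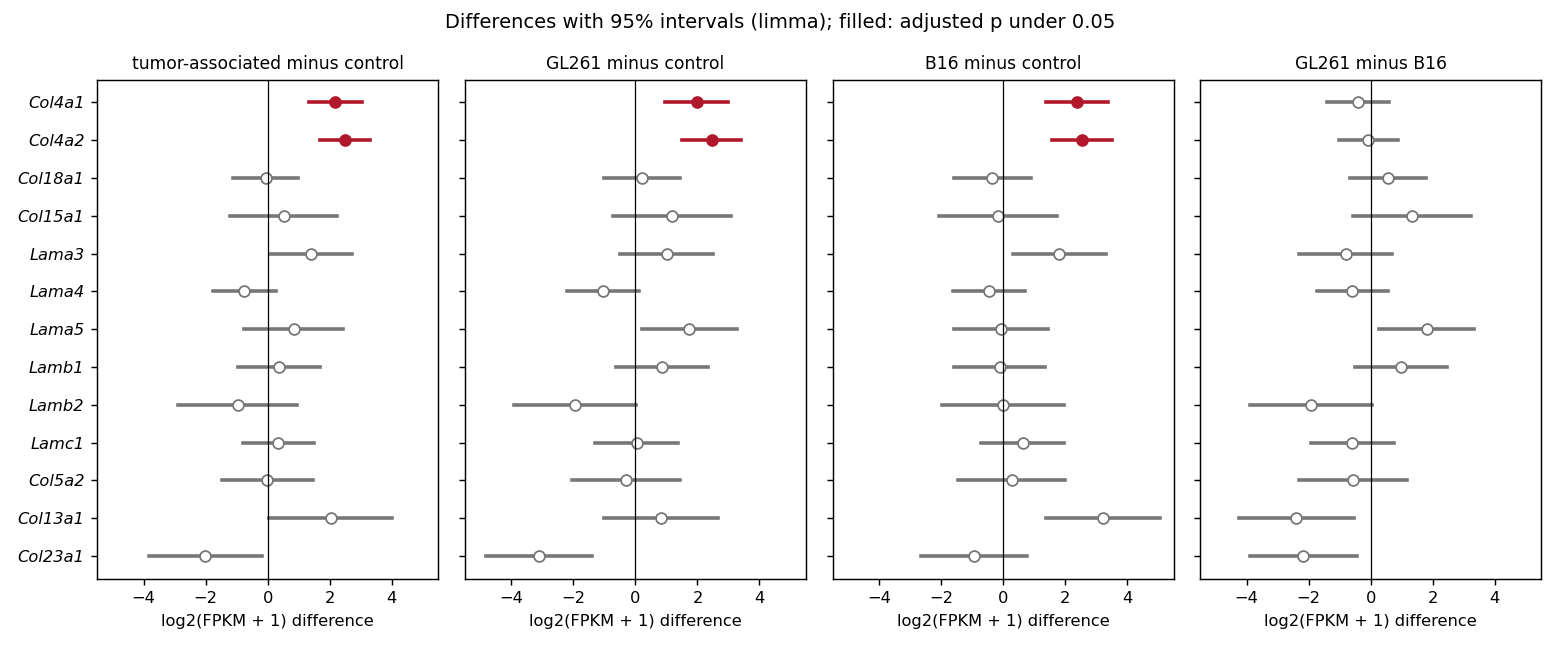
Differences in log2(FPKM + 1) with 95% intervals (x axis) for 13 of the chains tested, in 4 comparisons. Filled red points passed an adjusted p of 0.05 in limma. Col4a1 and Col4a2 passed in all comparisons with control and in none between GL261 and B16, and the other 11 chains passed in none.

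Fibrillar chains were nearly absent from all groups. They summed to 6.86 ± 1.62 FPKM in controls, with 5.92 ± 4.27 for GL261 and 7.19 ± 3.55 for B16. Most of it was Col5a2, a minor chain that is built into type I fibres, at 5.10, 4.46 and 6.19 in control, 8.19, 2.38 and 3.17 in GL261 and 11.3, 5.00 and 4.75 in B16. Its difference was -0.01 (95% interval -1.49 to 1.47, adjusted p = 0.996). Col5a2 lies 24614 bases from Col3a1, tail to tail, and the methods do not state counting by strand. The main stromal chains stayed low. Col1a1 reached 0.53 at most, Col1a2 2.53, Col3a1 2.65 and Col5a1 0.15, and the other 6 fibrillar chains were listed at 0 in all libraries.

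On the scale of sums and of means, basement membrane chains stood higher in tumor-associated libraries, while fibrillar chains overlapped between groups. In percent of all FPKM, basement membrane chains held 0.0315 ± 0.00704 in control, 0.0566 ± 0.00134 in GL261 and 0.0761 ± 0.0200 in B16, whereas fibrillar chains held 0.00102 ± 0.000216, 0.000709 ± 0.000505 and 0.000963 ± 0.000454. Basement membrane FPKM was between 24.5 and 38.1 times the fibrillar FPKM in controls and between 38.0 and 139 times in tumor-associated libraries, so that the groups overlapped at their edges. The mean log2(FPKM + 1) over the 19 basement membrane chains was 1.79 ± 0.0493 in control and 2.16 ± 0.120 in tumor-associated libraries. Over the 11 fibrillar chains it was 0.368 ± 0.134 and 0.297 ± 0.0939. The difference between both classes was 1.42 ± 0.134 in control and 1.86 ± 0.121 in tumor-associated libraries, a shift of 0.44 that is described here without a test. Col4a1 and Col4a2 carried the class. Without them, the share of all FPKM was 0.0183% ± 0.00245 in controls, 0.0126% ± 0.00110 in GL261 and 0.0153% ± 0.00496 in B16, with overlap between controls and B16. In the same chains, the mean log2(FPKM + 1) was 1.38 ± 0.0378 in controls and 1.52 ± 0.126 in tumor-associated libraries.

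The transmembrane collagens had the largest log2 differences between GL261 and B16 among the 14 chains, although none passed the test. Col23a1 was at 19.0, 14.1 and 15.2 FPKM in control, 1.86, 1.66 and 0 in GL261 and 6.90, 5.97 and 11.7 in B16. The 3 groups did not overlap, with control highest and GL261 lowest. Its difference to control was -2.02 (SE 0.84, limma adjusted p = 0.217) for all tumor-associated libraries, -3.11 (SE 0.78, adjusted p = 0.0537) for GL261 and -0.93 (SE 0.78, adjusted p = 0.634) for B16. The GL261 value of Col23a1 passed after rescaling (adjusted p = 0.0463), quantile normalization (0.0322) and without a variance trend (0.0260). Col13a1, a membrane collagen of cell junctions, was at 0, 0.19 and 0 in control, 0.53, 3.02 and 0.082 in GL261 and 24.7, 5.21 and 5.08 in B16. Its difference was 2.02 (SE 0.91, adjusted p = 0.253) over all tumor-associated libraries, 0.83 (SE 0.84, adjusted p = 0.672) in GL261 and 3.22 (SE 0.84, adjusted p = 0.0770) in B16. B16 1 held the highest value by far, and the transmembrane sum was 2.38 ± 2.30 in GL261 against 19.8 ± 10.6 in B16. Col17a1 and Col25a1 were listed at 0.

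Between tumor-associated and control libraries, Col4a1 and Col4a2 (higher) and Col23a1 (lower) did not overlap, as was so for 10.5% of all genes tested. Lama3 did not overlap either, but it passed the filter through tumor-associated libraries alone. Its difference is therefore partly set by the filter and is not read as a result. Between GL261 and B16, 5 did not overlap, against 13.8% of all genes. Lama5 and Lamb1 were higher in GL261, by 1.80 (SE 0.70, limma adjusted p = 0.819) and 0.97 (SE 0.68, adjusted p = 1.00). Lower in GL261 were Col13a1 (-2.40, SE 0.84, adjusted p = 0.695), Col23a1 (-2.17, SE 0.78, adjusted p = 0.748) and Lamb2 (-1.94, SE 0.90, adjusted p = 0.911). No member was called by limma, 3 had an unadjusted p under 0.05, and 0.01% of all genes were called (1 gene, with 548 at an unadjusted p under 0.05). GL261 and B16 libraries were also collected at different times after injection, which cannot be told apart from the tumor.

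The remaining 25 collagens belong to neither class. Besides the transmembrane chains, 10 of them had any value above 0, each in at most 2 libraries. The highest values were 4.23 for Col7a1 in Control 1, 4.00 for Col8a1 in B16 1, 3.49 for Col9a2 in GL261 2 and 2.33 for Col14a1 in Control 1. Of the type VI chains, Col6a2 reached 1.64 and Col6a3 1.40. Another 13 were listed at 0 in all libraries.

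Other basement membrane genes were read from a list of 15, of which 12 were tested. Sparc, Sparcl1 and Vwa1 were called higher and none was called lower, where 3.93% of all genes tested were called. Of the 12 differences, 9 were above 0, and their median was 0.53, against 0.20 over all genes. Among those below 0 were Fbln2 (-2.17, SE 1.10, limma adjusted p = 0.308) and Fbln5 (-1.07, SE 0.68, adjusted p = 0.413). Sparc, a secreted protein that binds type IV collagen, lay between 97.4 and 612 FPKM in controls and between 1468 and 3028 in tumor-associated libraries, a difference of 2.71 (SE 0.47, limma adjusted p = 0.00590). Its relative Sparcl1 was at 39.3, 0 and 0 in control and at 53.5 to 273 in tumor-associated libraries (5.03, SE 1.00, adjusted p = 0.0138). Vwa1, a partner of perlecan, was at 0 to 3.96 and at 88.6 to 187 (5.59, SE 0.54, adjusted p = 1.37e-04). Sparcl1 and Vwa1 are on the list that the study chose on these samples and are not independent evidence of direction. Nid1, which links laminin to type IV collagen, was at 2.07 to 34.5 and at 41.5 to 98.7 (2.30, SE 0.66, adjusted p = 0.0758). Hspg2, which encodes perlecan, was at 1.24 to 3.18 and at 6.44 to 8.30 (1.54, SE 0.63, adjusted p = 0.208). The abundant Egfl7 (1349 ± 293 in control, 1307 ± 245 in tumor-associated libraries) and Tinagl1 (85.3 ± 20.6 and 120 ± 41.3) did not pass.

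None of the 22 tested genes of collagen synthesis was called, with 18 differences above 0 and a median of 0.58 beside 0.20 over all genes. P4ha2 among them passed the filter through tumor-associated libraries alone, so these values are partly set by the filter. The most abundant were Ppib (291 ± 83.7 FPKM in control and 277 ± 42.8 in tumor-associated libraries), P4hb (189 ± 35.8 and 238 ± 55.4), a subunit of prolyl 4-hydroxylase, and Plod1 (139 ± 33.6 and 118 ± 58.7), a lysyl hydroxylase. Serpinh1, the collagen chaperone HSP47, was listed at 0 in Control 1, stood at 47.4 and 53.9 in Control 2 and 3 and at 41.5 to 79.6 in tumor-associated libraries. None of the 9 tested receptors of collagen and laminin was called either (median 1.12). Itga2 and Ddr2 passed the filter through tumor-associated libraries alone, so this median is partly set by the filter. Itgb1, the integrin chain shared by most of the receptors, was at 67.9 to 108 in control and at 125 to 206 in tumor-associated libraries (0.73, SE 0.31, limma adjusted p = 0.224). Itga6, a laminin receptor chain, was at 3.02 to 19.2 and at 22.6 to 48.4 (1.98, SE 0.56, adjusted p = 0.0724). For both genes, each tumor-associated library lay above each control library, and groups did not overlap for 10.5% of all genes tested, in either direction. Bcam, a receptor of laminin alpha 5, overlapped between groups (33.3 ± 32.1 and 32.5 ± 43.2).

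Markers of blood and lymphatic endothelium were read beside type IV collagen, and several differed between tumor-associated and control libraries. Of 10 blood endothelial markers, all tested, 7 were called higher in tumor-associated libraries (Flt1, Cd34, Emcn, Esam, Ly6c1, Plvap and Slc2a1), beside 3.93% of all genes tested. The sum of the 10 lay between 2388 and 3170 FPKM in controls, between 6927 and 9891 in GL261 and between 6202 and 8664 in B16. Flt1 went from 0.0997 to 0.856 in control to 49.0 to 156, and Ly6c1 from 0 in each control library to 393 to 4375, and both passed the filter through tumor-associated libraries alone. The other 3 markers were Cldn5 (-0.63, SE 0.26, limma adjusted p = 0.211), Kdr (-0.34, SE 0.48, adjusted p = 0.755) and Sox17 (0.69, SE 0.73, adjusted p = 0.654), and Cldn5 was called lower in GL261 (-1.01, adjusted p = 0.0215). Of 9 lymphatic markers, all above 0 in every library, 8 were tested, since Ccl21a did not pass the filter. Of those tested, 4 were called lower (Flt4, Reln, Mmrn1 and Ccl21c) and none higher. The sum of the 9 lay between 10374 and 16693 in controls, between 954 and 2954 in GL261 and between 2123 and 6708 in B16. Of the tumors on their own, GL261 had 4 lymphatic markers called lower and B16 had 1 (Mmrn1), beside 3.49% and 2.11% of all genes tested. No lymphatic marker was called between GL261 and B16 (limma adjusted p of at least 0.271). Lyve1, which encodes the sorting marker, was at 974 to 1705 in controls and at 628 to 1895 in tumor-associated libraries (-0.36, SE 0.36, limma adjusted p = 0.629). Prox1, the defining lymphatic transcription factor, was at 20.9, 33.7 and 42.2 in control, 1.87, 1.98 and 16.5 in GL261 and 2.37, 3.72 and 3.12 in B16. The part of these shifts in the rise of Col4a1 and Col4a2 was not tested.

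**Figure D4:**
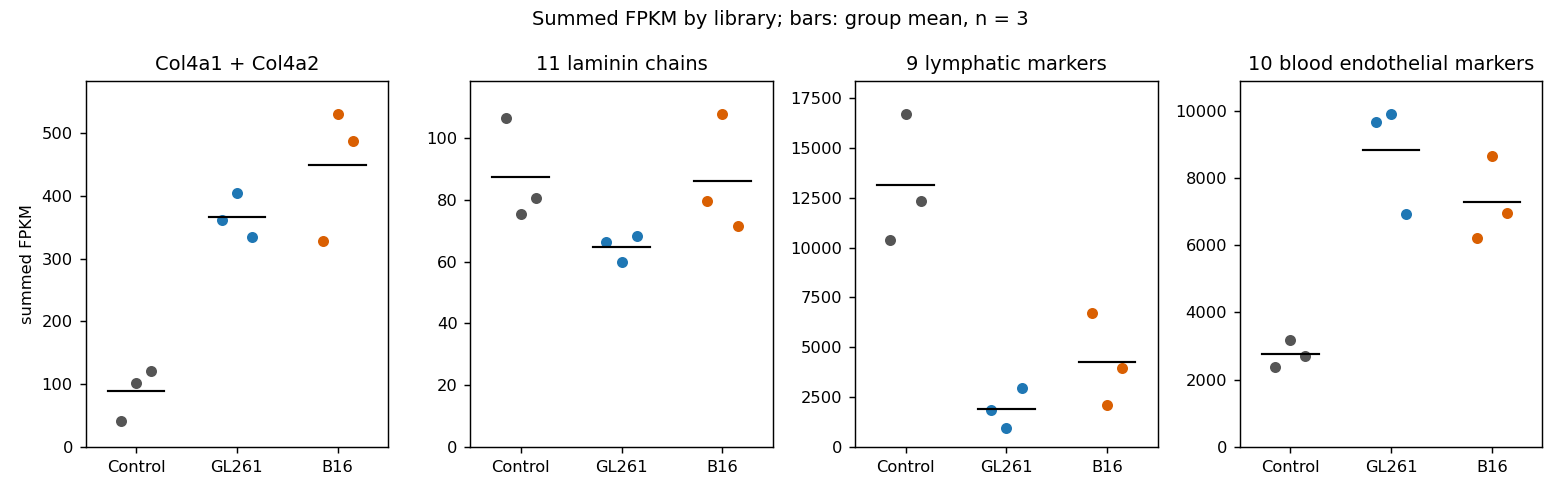
Summed FPKM by library (linear axes from 0) of Col4a1 and Col4a2, of the 11 laminin chains, of 9 lymphatic markers and of 10 blood endothelial markers. Points are libraries and bars are group means (n = 3). The type IV sum and the blood endothelial sum were higher in each tumor-associated library than in each control library, the lymphatic sum was lower, and the laminin sum overlapped.

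Markers of the other cells that make matrix were read beside these values. Of 10 fibroblast markers, 5 were at 0 in all libraries (Lum, Dpt, Mfap5, Slc6a13 and Fbln1), and the summed level lay between 15.7 and 71.8 FPKM in controls, between 0.0804 and 0.146 in GL261 and between 0.313 and 3.85 in B16. Dcn, the only one tested, was at 15.7 to 44.9 in controls and at most 0.146 in tumor-associated libraries. It passed the filter through controls alone, so its call is not read as a result. Of 9 mural cell markers, 3 were tested and none was called. Their sum lay between 170 and 1268 in controls, between 17.6 and 68.1 in GL261 and between 101 and 137 in B16. Des was at 0 throughout, and Pdgfrb, a defining pericyte gene, was above 0 in Control 1 alone (3.96). Kcnj8 and Abcc9 were above 0 in every library. Kcnj8 was at 59.9 to 195 in controls and 6.56 to 116 in tumor-associated libraries (-1.23, SE 0.77, limma adjusted p = 0.405). Abcc9 was at 0.507 to 7.69 and at 4.35 to 16.1 (1.77, SE 0.75, adjusted p = 0.221). Among 8 leukocyte markers, Ptprc, which encodes CD45, was at 0 in all libraries, and the sum lay between 278 and 604 in controls, between 36.2 and 450.5 in GL261 and between 43.5 and 306 in B16. Fcer1g (201 to 390 in controls, 17.8 to 272 in tumor-associated libraries) and Mrc1 (11.3 to 82.2 and 0.304 to 17.0) were above 0 in every library. No leukocyte marker was called over all tumor-associated libraries, and Mrc1 was called lower in GL261 (-4.27, SE 0.87, limma adjusted p = 0.0216). Of 5 melanoma markers, Mlana, Tyr and Tyrp1 were at 0 throughout and none passed the filter. The part of these cells in the values of the chains was not tested.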

How the data were processed

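RNA was amplified from sorted MLECs and sequenced as read pairs. The paper's methods describe a poly(T) tail on first-strand cDNA before amplification. Per the labels' processing notes and the methods, the authors used TopHat2 2.0.12 to align reads to mm9 and Cufflinks 2.2.1 for expression. The deposited values are FPKM per gene symbol, not scaled further between libraries, and read counts were not used here. The annotation given to Cufflinks is not given in the sources used here. Labels and methods differ on the injection route (cisterna magna in the labels, beneath the dura in the methods), and the labels were followed for groups. The study's results name PDPN, and its methods and the labels LYVE-1, as the lymphatic marker of the sort.

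From these, log2(FPKM + 1) was modelled per gene by limma 3.58.1 (R 4.3.3) with lmFit and eBayes, trend included, for genes that reached 1 FPKM in 3 or more of 9 libraries. Adjusted p (Benjamini-Hochberg) under 0.05 counted as called. GL261 and B16 formed a single tumor-associated group, a term of the study's results. Single tumors were compared in a model of 3 groups, whose libraries share 1 estimate of the spread. Class sums, shares and ratios were described without tests. Positions came from GENCODE M1 (mm9) by symbol and promoter windows from RefSeq, and relative depth was estimated from the steps between low FPKM. Members that passed the filter were named, except 1 that is not reported here. Values in each library were given for members called, for the 5 largest and 5 smallest differences and for the 5 highest means, and other lists by counts, by the genes called and by their 3 highest means. Nid1, Hspg2, Serpinh1, Prox1 and the smooth muscle genes were added after values were seen. The members and lists were chosen with earlier results of these data known. Alternatives were a pseudocount of 0.1, rescaling, quantile normalization, no filter, no trend, a replicate block, 2 covariates, a ROC rule and leaving out each library. Python 3.11.15, numpy 2.4.6, pandas 2.3.3 and matplotlib 3.10.9 were used.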

Additional observations from a re-analysis of the deposited data

Results flagged for a closer look

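In 3 chains, 1 library stood far from the other 5 tumor-associated libraries by Dixon's criterion, and 14 chains were examined. Chance meets this criterion in about 1 of 20 groups drawn from a single normal population. These groups join both tumors, so the chance rate here is unknown. Col13a1 was at 24.7 FPKM in B16 1, against at most 5.21 in the other 5 libraries. Lama3 was at 6.98 FPKM in B16 2, against at most 2.12. Lamc1 was at 40.9 FPKM in B16 2, against at most 20.7.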

How the results depend on the processing

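Between tumor-associated and control libraries, the count of 2 members called held under another pseudocount, rescaling, quantile normalization, no filter, no trend, the 3-group model, the replicate block and each fit without 1 library. It was 0 with detected genes as a covariate and 0 with estimated depth as a covariate (chosen after seeing the data), where 4 and 3 members had an unadjusted p under 0.05 in limma. Calls over all genes fell alike, from 391 (3.93%) to 13 (0.131%) and 9 (0.0904%), with 1019 and 1053 genes at an unadjusted p under 0.05. By ROC power above 0.4, the count was 10. The cause was not tested. For GL261 against control, the count was 1 without a filter and 0 with either covariate, and 0 to 2 without 1 library. It was 2 after rescaling, quantile normalization and without a trend, but with Col23a1 in place of Col4a1. The alternatives of the Col4a1 call in GL261 gave an adjusted p between 0.0305 and 0.869 in limma, and 12 of 17 lost it, against 4 of 17 for Col4a2. For B16 against control, the count was 1 without a filter, 1 without a trend and 0 with either covariate, and 0 to 2 without 1 library.

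Other directions turned with a covariate. With detected genes and with estimated depth, the tumor-associated difference was -1.14 and -0.92 for Col15a1, 0.0434 and 0.0695 for Lama4, -0.18 and -1.05 for Lama5, -0.11 and -0.68 for Lamb1, 1.10 and 0.78 for Lamb2, and 0.49 and 0.83 for Col5a2. Without 1 library, it ranged from -0.41 to 0.25 for Col18a1 and from -0.21 to 0.16 for Col5a2. None of these chains was called by limma under any setting, but Lama4 and Lama5 had a ROC power above 0.4. The shift between basement membrane and fibrillar chains was 0.997 with a pseudocount of 0.1 and 0.367 to 0.494 without 1 library. It was 0.668 for basement membrane collagens alone and 0.279 for laminins alone. Over chains that passed the filter it was 0.668, but there Col5a2 was the only fibrillar chain, set against 11 basement membrane chains. Lama3 is among these and passed through tumor-associated libraries alone, so that this value is partly set by the filter.

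No label states that the replicate numbers pair the libraries. Deviations of libraries with the same number correlated between -0.033 and 0.044, so no pairing was seen. With 10 cells per library, this check could miss a weak one. With the replicate block, Col4a1 and Col4a2 kept adjusted p of 0.00783 and 0.00614, and 303 genes were called in place of 391. With 10 cells per library, 3 libraries per group and no read counts, values near 0 cannot be told from failed detection.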
